A study of Mus musculus with 6 samples.

Results

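Vat1, Arl2 and Kcnn4 are 3 mouse genes that do not belong to the core cell cycle and that have been reported as targets of miR-497 or of the related miR-195 and miR-16 in tumour cells. They were found by gene symbol among the 55401 Ensembl identifiers of a table of read counts, in which each symbol matched 1 identifier, and all 3 passed the filter on low counts that left 14661 genes for testing. The cells were ADC106, a mouse angiosarcoma line, that is, a line from a malignant tumour of vessel-lining cells. One group, labelled WT, received an NC mimic, and the other, labelled miR-497 overexpression, received an miR-497 mimic, both at 12.5 nM. RNA was taken 3 days after transfection, and each group has 3 libraries, numbered 1 to 3 but not described in the labels as separate cultures, so p-values measure the spread between these libraries, which may be technical. The groups share the line and the transfection, and untransfected cells were not analysed here. The question put by the series was which genes make up the target network of miR-497.

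A microRNA guides an Argonaute protein to transcripts, mostly in their 3' untranslated region (3' UTR), where bases 2 to 8 of the microRNA, the seed, pair with the transcript. Bound transcripts are usually deadenylated and degraded, so that a drop in their read counts can be seen. VAT1 is a membrane-associated protein of the quinone oxidoreductase kind that has been described as a binding partner of mitofusins and has been linked to the migration of angiosarcoma cells. ARL2 is a small GTPase that works with the tubulin cofactors in building tubulin dimers and that acts on carriers of lipid-modified proteins. KCNN4, also called KCa3.1, is a potassium channel that opens when calcium binds to its calmodulin.

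The mature sequence of miR-497a-5p is given with those of miR-195a-5p and miR-16-5p, since these are the microRNAs named in the choice of the genes (RefSeq, GRCm38.p6, 5′ to 3′). Capitals mark the seed, which the 3 microRNAs share.
miR-497a-5p: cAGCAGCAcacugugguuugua
miR-195a-5p: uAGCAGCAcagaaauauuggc
miR-16-5p: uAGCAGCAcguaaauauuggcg

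Matches to this seed were searched on the sense strand of the longest annotated 3' UTR of each gene (GENCODE M21, GRCm38). A 7mer-m8 match is TGCTGCT, a 7mer-A1 match is GCTGCTA, and an 8mer match is TGCTGCTA, which contains both. The 6mer GCTGCT lies inside all of them and is counted as a site only where stated. Of the 12859 tested genes with a 3' UTR, 28.1% held a 7mer or 8mer. The members held 8 between them, and no member had a 7mer-A1. The sites of the 3 members are printed in transcript sense, with the match in capitals.
Vat1 site 1, chr11:101459857-101459886, minus strand: cctctccctgggcctaccaTGCTGCTtttg
Vat1 site 2, chr11:101458936-101458965, minus strand: aggctaggtgggggtcaccTGCTGCTtctg
Arl2 sites 1 and 2, chr19:6134555-6134584, minus strand: aaccccaccatgaccTGCTGCTGCTAttac
Arl2 site 3, chr19:6134537-6134551, minus strand: ccatTGCTGCTcccc
Arl2 site 4, chr19:6134444-6134473, minus strand: tgggctgggagggactaccTGCTGCTgcca
Kcnn4 site 1, chr7:24384941-24384970, plus strand: tcagaagccctttctgctgTGCTGCTgttc
Kcnn4 site 2, chr7:24385142-24385171, plus strand: gccagaagagggtacagggTGCTGCTcacc

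Arl2 had the densest sites of the 3 genes. Its 3' UTR was 284 bases long and held 4 matches, 14.1 per kb, which ranked 6 among the 12859 genes. The first 2 matches overlapped, however: a 7mer-m8 at bases 98 to 104 after the stop codon shared 4 bases with the 8mer at bases 101 to 108, so that the 4 matches lay at 3 separate places. The third match began 11 bases after the 8mer, and the fourth lay at bases 213 to 219. Of 846 tested genes with a 3' UTR within 20% of this length, 7.45% had at least 1 site, and Arl2 was the only one with as many as 4.

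Vat1 had 2 matches of 7mer-m8 type at bases 326 to 332 and 1247 to 1253 of a 3' UTR of 1448 bases, and 2 more 6mers. This came to 1.38 sites per kb, and 116 of 1933 genes with a 3' UTR of similar length had at least as many. Kcnn4 had 2 matches of 7mer-m8 type at bases 333 to 339 and 534 to 540 of 574 bases. Of 1289 genes with a 3' UTR of similar length, 2.33% had at least as many. The coding sequence of Kcnn4 held another 2 matches of this type, whereas those of Vat1 and Arl2 held 0. The bases CCAC, complementary to bases 13 to 16 of miR-497a-5p, stood within 18 bases upstream of both overlapping Arl2 sites, which share the same CCAC. They stood upstream of no other site of the 3 genes. Counted by site, 7.61% of all 5496 sites of tested genes had CCAC upstream. These matches are descriptions of sequence and do not show binding.

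**Figure D1:**
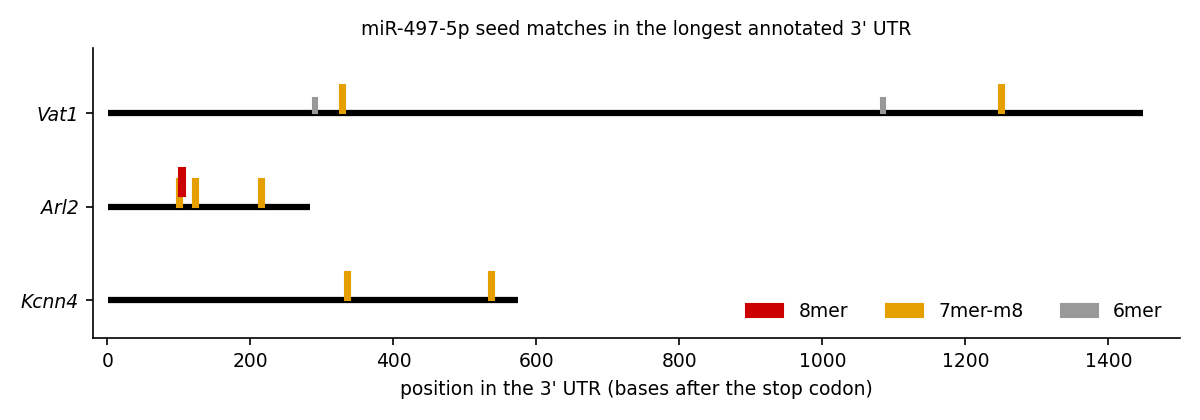
Seed matches for miR-497-5p along the longest annotated 3' UTR of Vat1, Arl2 and Kcnn4, drawn to scale in bases after the stop codon, with 8mers in red, 7mer-m8 matches in orange and 6mers in grey; the 8mer of Arl2 is drawn raised where it overlaps a 7mer-m8. The 4 matches of Arl2 lie within 284 bases, while the 2 orange matches of Vat1 are spread over 1448 bases.

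The annotation places Vat1 (ENSMUSG00000034993) on the minus strand of chr11:101458745-101466230 and Arl2 (ENSMUSG00000024944) on the minus strand of chr19:6134374-6141548. Kcnn4 (ENSMUSG00000054342) lies on the plus strand of chr7:24370263-24386690. All printed sites lie in the 3' UTR of a protein-coding transcript. Kcnn4 also has a short protein-coding transcript model with a 3' UTR of 47 bases and 0 sites.

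The libraries held 25777676 to 36159499 counts each. Mitochondrially encoded genes took 2.03% to 2.15% of the counts with NC and 2.94% to 3.77% with miR-497. All 12 endothelial marker genes listed for the check of the cell type passed the filter, and their summed level was 9851 to 10543 CPM (counts per 1000000 counts of the library, after scaling) with NC and 9506 to 9974 CPM with miR-497, with 4 of them lower and 7 higher. The 4 epithelial markers summed to 0.394 to 1.12 CPM, and the 4 mesenchymal markers to 148 to 154 CPM with NC and 204 to 240 CPM with miR-497. The part of these shifts in the results was not tested. In the test of all genes (edgeR quasi-likelihood, Benjamini-Hochberg, adjusted p under 0.05), 2 of the 3 genes, Vat1 and Arl2, were lower, Kcnn4 was not called, and 0 were higher. Among all tested genes 26.0% were lower with miR-497, 23.8% were higher and 49.8% were called in either direction. In a bulk sample, fewer cells with a transcript and less of it per cell cannot be told apart. The median log2 fold change of all tested genes was -0.02.

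Vat1 was the most abundant of the 3 genes and fell to about the 2-fold line. Its level was 443, 456 and 466 CPM in NC libraries 1 to 3 and 230, 236 and 214 CPM in miR-497 libraries 1 to 3. The lowest NC library lay well above the highest miR-497 library, and the groups did not overlap. This held in the same direction for 29.6% of all tested genes, and in the opposite direction for 27.8%. The means were 455 ± 11.5 and 227 ± 11.4 CPM (SD, n = 3), so that 49.9% of the NC level was left. On the log2 scale this was -1.003, with an SE of 0.0546 and a 95% interval from -1.12 to -0.89 (edgeR adjusted p = 2.5e-10). A fall of at least 2-fold that passed the test was found for 5.19% of tested genes, and Vat1 stood just inside that limit at 2.00-fold. With 5792 to 16643 counts per library, counting error was small beside the biological coefficient of variation of 5.18%.

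Arl2 fell furthest of the 3. Its level was 31.3, 33.8 and 33.6 CPM in NC libraries 1 to 3 and 9.55, 11.0 and 8.04 CPM in miR-497 libraries 1 to 3. The groups were again separate, and the miR-497 library numbered 3 was the lowest for both Arl2 and Vat1. Mean levels were 32.9 ± 1.41 and 9.51 ± 1.46 CPM (SD, n = 3), a 3.46-fold decrease to 28.9% of NC. On the log2 scale this was -1.79, with an SE of 0.106 and a 95% interval from -2.01 to -1.57 (edgeR adjusted p = 6.5e-10). Only 1.47% of tested genes had a lower log2 fold change, compared with 6.16% for Vat1. The spread between libraries, relative to the mean, was 4.28% with NC and 15.3% with miR-497, where Arl2 had 240 to 348 counts.

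The changes of Vat1 and Arl2 were of unequal size, and the difference was larger than the spread between libraries. The log2 ratio of Arl2 to Vat1 in CPM was -3.82, -3.75 and -3.79 in the NC libraries and -4.58, -4.42 and -4.72 in the miR-497 libraries. The ratio therefore fell by 0.79 on the log2 scale, and the groups did not overlap (2-sided exact permutation p = 0.1, which is the lowest that 3 against 3 libraries can reach).

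Kcnn4 was near the limit of detection and no change could be shown. Its counts were 39, 16 and 19 in NC libraries 1 to 3, or 1.18, 0.438 and 0.675 CPM, and 16, 23 and 7 in miR-497 libraries 1 to 3, or 0.637, 0.724 and 0.230 CPM. The highest value was in NC library 1 and the lowest in miR-497 library 3, with the other 4 libraries mixed between them. Group means were 0.763 ± 0.377 and 0.530 ± 0.264 CPM (SD, n = 3), which the fit put at -0.52 on the log2 scale, with an SE of 0.519 (edgeR adjusted p = 0.427). The 95% interval of the fit ran from -1.62 to 0.58, which includes both no change and the fall measured for Vat1, but not the -1.79 of Arl2. Without NC library 1 the value was -0.07, and without miR-497 library 3 it was -0.16. The summed reads, 74 with NC and 46 with miR-497, gave a ratio of 0.696 (95% interval 0.471 to 1.02, conditional exact binomial, counting error only).

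Kcnn4 is well known in lymphocytes and macrophages, and of the 7 blood cell markers checked, Cd3e and Itgam were at 0 in all libraries. Ptprc, Adgre1 and Lyz2 stayed under 1 CPM in each library. The list summed to 8.71 to 9.59 CPM with NC and 15.1 to 19.9 CPM with miR-497, mostly from Cd68, a lysosomal protein. Per kilobase of annotated exon, the NC level of Vat1 was 164 ± 4.15 CPM, that of Arl2 9.52 ± 0.407 CPM and that of Kcnn4 0.149 ± 0.0737 CPM (SD, n = 3). On this scale 98.6% of tested genes lay below Vat1, 66.1% below Arl2 and 6.10% below Kcnn4. The divisor was all annotated exon bases, 2766 for Vat1, 3456 for Arl2 and 5115 for Kcnn4. The protein-coding transcripts searched for sites had 2766, 1286 and 1990 bases. Dividing by exon bases thus gives Arl2 and Kcnn4 lower values than dividing by these transcript lengths would. With miR-497 the levels per kilobase were 82.0, 2.75 and 0.104 CPM, so the order of the 3 genes was the same in both groups.

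**Figure D2:**
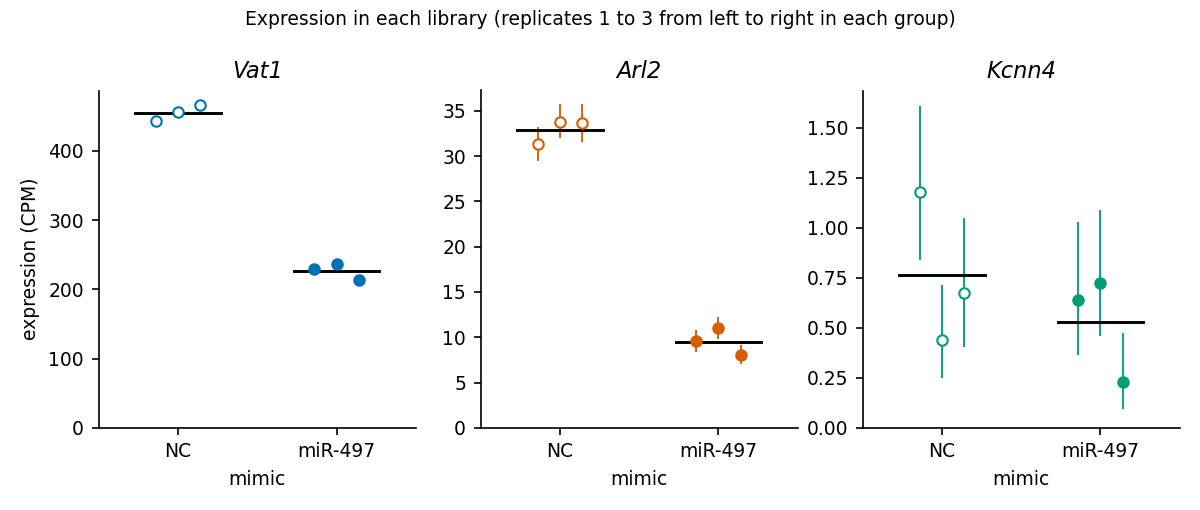
Expression of Vat1, Arl2 and Kcnn4 in CPM (vertical axes from 0, scaled for each gene) in the 3 NC and 3 miR-497 libraries; points are libraries with 95% Poisson intervals for counting error, hidden by the points for Vat1, and black lines are group means. The groups are separate for Vat1 and Arl2 and overlap for Kcnn4.

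**Figure D3:**
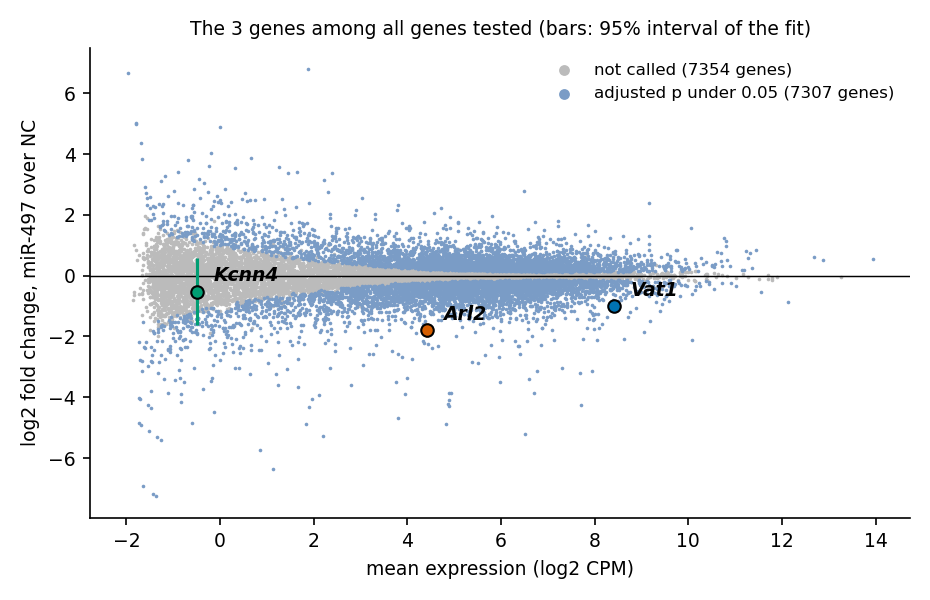
Log2 fold change (miR-497 over NC) against mean log2 CPM for the 14661 tested genes, with called genes in blue, and Vat1, Arl2 and Kcnn4 with the 95% interval of the fit. Arl2 and Vat1 lie in the lower part of the cloud, with 1.47% and 6.16% of genes below them, and the interval of Kcnn4 spans 0.

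The fall of Arl2 was then set beside those of genes with similar sites. The 160 tested genes with 4 or more sites had a median log2 fold change of -0.33, and 57.5% of them were lower. Only 4 of these genes had a lower log2 fold change than Arl2. The 3 lowest were Syt16, Ttbk1 and Hsd17b7. Syt16, a synaptotagmin, had 108 reads in all NC libraries and 3 in all miR-497 libraries, a ratio of 0.0311 (95% interval 0.00631 to 0.0933, conditional exact binomial, counting error only). Ttbk1, a tau kinase, was also low and went from 0.972 ± 0.416 to 0.267 ± 0.0491 CPM (SD, n = 3). On the log2 scale Ttbk1 fell by 1.87 with an SE of 0.491 (edgeR adjusted p = 0.0043, or 0.0598 without NC library 2). Hsd17b7, an enzyme of cholesterol synthesis, fell from 67.7 ± 2.51 to 19.0 ± 2.91 CPM (SD, n = 3). Their 3' UTRs were 3498 to 6590 bases long, against 284 for Arl2. Among the 322 genes with at least 3 separate sites, a set in which overlapping matches count as 1, the median was -0.24, and 5 genes had a lower value than Arl2.

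Only 6 tested genes had a site density at least that of Arl2, and Arl2 had the lowest log2 fold change of them. With Arl2 included, their median was -0.54, with 4 lower and 1 higher. Among all tested genes with a 3' UTR, 28.4% were lower and 25.4% higher. For Vat1, the 759 genes with 2 sites had a median of -0.23, and 46.9% of them were lower. Of these, 65 had a lower log2 fold change than Vat1, and 215 had a lower one than the fitted value of Kcnn4. Restricting the genes with 2 sites to the 96 with a 3' UTR within 20% of the length of that of Vat1 gave a median of -0.40, with 12 below Vat1. The 9242 genes without a site had a median of 0.02, and 23.5% of them were lower.

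**Figure D4:**
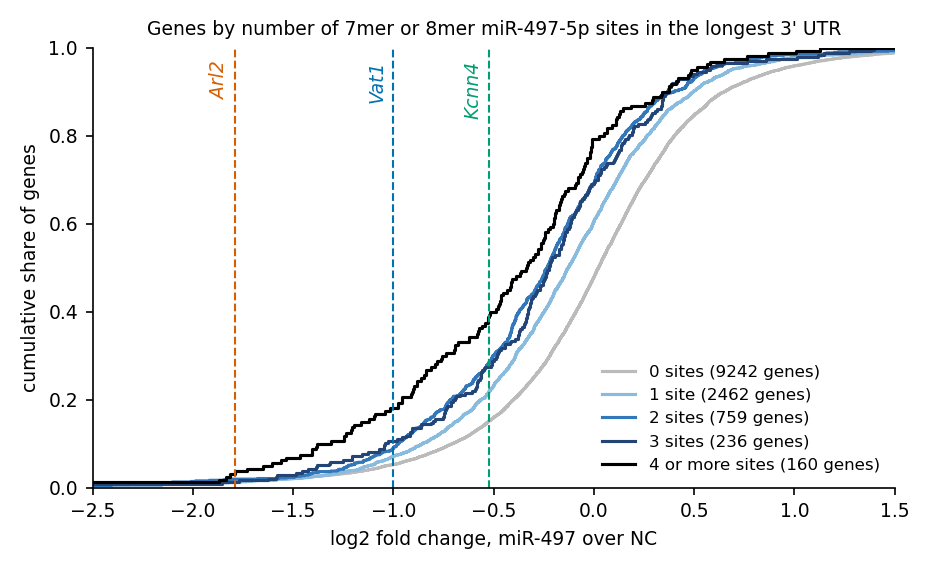
Cumulative share of genes by log2 fold change (miR-497 over NC; the axis leaves out the extremes) for genes with 0, 1, 2, 3 and 4 or more 7mer or 8mer sites in the longest 3' UTR, with dashed lines at Arl2, Vat1 and Kcnn4. Few genes of any class lie to the left of Arl2, including 4 of the 160 genes with 4 or more sites.

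The genes next to Vat1 and Arl2 include genes that also fell, and the strand setting of the counting is not given in the sources used here. Ifi35, an interferon-induced gene, ends 46 bases from the end of Vat1 on the opposite strand and fell from 138 ± 15.6 to 72.6 ± 2.24 CPM (SD, n = 3; -0.93 on the log2 scale, edgeR adjusted p = 1.7e-08). It has 0 sites. Its fall of 65.2 CPM was 28.6% of the fall of Vat1, 228 CPM. Rnd2, a small GTPase gene on the opposite strand, overlaps 8.17% of the exon bases of Vat1, and its fall of 2.41 CPM was 1.06% of that of Vat1. Whether reads of these neighbours entered the count of Vat1 was not tested. The call on Rnd2 (-0.37, edgeR adjusted p = 0.0253) was lost without NC library 2 (0.154), without miR-497 library 2 (0.091) and with upper quartile scaling (0.0528).

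Batf2, an interferon-induced transcription factor gene on the opposite strand, overlaps 1.48% of the exon bases of Arl2. Batf2 had 30 to 35 counts per NC library and 6 to 10 per miR-497 library (-1.91 on the log2 scale, edgeR adjusted p = 0.0021). Its fall of 0.738 CPM was 3.16% of the fall of Arl2, and whether its reads entered the count of Arl2 was not tested. On the other side of Arl2, Snx15, a sorting nexin on the same strand, went from 18.7 ± 0.314 to 18.1 ± 2.65 CPM (SD, n = 3) and did not pass the test (edgeR adjusted p = 0.737). No opposite-strand gene overlaps Kcnn4. Of its neighbours, Lypd5 did not pass the filter, and Smg9, a nonsense-mediated decay factor, had -0.21 (edgeR adjusted p = 0.0245). This call was lost without any 1 of NC libraries 2 and 3 and miR-497 libraries 2 and 3 (0.0524 to 0.142). It was also lost with upper quartile scaling (edgeR adjusted p = 0.071) and by DESeq2 (DESeq2 adjusted p = 0.0596).

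Most of the tested partners of Arl2 were higher with miR-497. Of 13 tested genes for its effectors, its regulators and the tubulin cofactors, 9 were higher and 2 lower (all tested genes: 23.8% and 26.0%). Their median log2 fold change was 0.50. None fell by 2-fold, and 2 of the 13 had a site. Unc119b, a carrier of myristoylated proteins, rose from 30.6 ± 2.12 to 57.5 ± 1.85 CPM (SD, n = 3; 0.91, edgeR adjusted p = 2.3e-08). The tubulin cofactor genes Tbcb and Tbcc both rose by 0.62 on the log2 scale (edgeR adjusted p = 3.8e-07 and 2.4e-05). Of the exon bases of Tbcb, 22.5% lie under genes of the opposite strand. Arl2bp, which encodes an effector named after ARL2, rose from 48.2 ± 5.92 to 71.1 ± 4.31 CPM (SD, n = 3; 0.56, edgeR adjusted p = 2.5e-05).

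Tbce, another tubulin cofactor gene, fell by 0.53 on the log2 scale (edgeR adjusted p = 0.00061). Pde6d, which encodes a carrier of prenylated proteins released by ARL2, fell by 0.30 on the log2 scale (edgeR adjusted p = 0.0011). Tbcd, whose protein binds ARL2 directly, was at 137 ± 5.64 CPM with NC and 140 ± 0.892 CPM with miR-497 (SD, n = 3; edgeR adjusted p = 0.546). Tbca, a further tubulin cofactor gene, rose by 0.20 on the log2 scale (edgeR adjusted p = 0.0124). It lost its call without NC library 1 (0.0584) or miR-497 library 1 (0.0594). Of the tubulin cofactor genes, Tbca, Tbcb and Tbcc were thus higher, Tbce was lower and Tbcd was not called.

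Among 14 tested relatives of Arl2 in the Arl family, 5 were higher and 3 lower (all tested genes: 23.8% and 26.0%). Their median was 0.09. Arl4c, Arl3 and Arl16 rose by 0.50, 0.50 and 0.49 on the log2 scale (edgeR adjusted p = 1.8e-05, 0.00032 and 0.00016). Arl3, which is also counted among the partners, encodes a GTPase that acts on the same carriers as ARL2. Arl8a, which couples lysosomes to kinesin, fell by 0.53 and Arl4d by 0.50 on the log2 scale (edgeR adjusted p = 2.4e-07 and 0.00098). The remaining fall, Arl8b at -0.16 (edgeR adjusted p = 0.034), kept its call in 6 of 13 alternatives and lost it without NC library 2 (0.106), NC library 3 (0.151) or miR-497 library 3 (0.177).

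Tubulins, the substrates of the cofactors, were mixed. Of 10 tested alpha and beta tubulin genes, 4 were lower and 3 higher (all tested genes: 26.0% and 23.8%), and the median was -0.46. Tuba1c fell from 164 ± 3.55 to 90.8 ± 6.29 CPM (SD, n = 3; -0.85, edgeR adjusted p = 3e-09), and Tubb6 and Tubb4b fell by 0.71 and 0.65 on the log2 scale (edgeR adjusted p = 1.4e-07 and 3.5e-08). Tuba4a rose from 4.17 ± 0.563 to 10.1 ± 1.06 CPM (SD, n = 3; 1.27, edgeR adjusted p = 3.7e-06), its 3' UTR held 3 sites, and 37.3% of its exon bases lie under opposite-strand genes. Tubb2a rose by 0.34 (edgeR adjusted p = 0.00015). The rise of Tuba1b (0.27, edgeR adjusted p = 0.0297) had overlapping groups. It lost its call without NC library 2 (0.0922) or 3 (0.101) or miR-497 library 2 (0.126) or 3 (0.0517). It was also not called by DESeq2 (DESeq2 adjusted p = 0.134). Some tubulin genes of the same class are close in coding sequence, and how reads that align to several of them were handled is not given.

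No relative of Vat1 was called lower. Of 7 tested genes of the same reductase family, 2 were higher and 0 lower by edgeR, also 0 lower at an unadjusted p under 0.05 and 0 by DESeq2 or limma voom. The list median was 0.19, and among all tested genes 26.0% were lower and 23.8% higher. Zadh2, a prostaglandin reductase gene, rose from 25.4 ± 2.42 to 37.4 ± 1.15 CPM (SD, n = 3; 0.55, edgeR adjusted p = 1.8e-05). Cryz, the zeta-crystallin gene, had 0.36 (edgeR adjusted p = 0.0331) and lost its call without NC library 2 (0.138), NC library 3 (0.0551) or miR-497 library 1 (0.155). Vat1l, the closest relative by name, was at 0.0949 CPM with NC and did not pass the filter.

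VAT1 has been tied to mitochondrial fusion through the mitofusins, and ARL2 has also been placed at mitochondria. Of 13 tested fusion and fission genes, 3 were lower and 0 higher by edgeR, against 26.0% and 23.8% of all tested genes. The number higher was also 0 at an unadjusted p under 0.05 and by DESeq2 or limma voom. The list median was -0.10. Mfn2, a mitofusin gene with 4 sites in its 3' UTR, fell from 72.2 ± 3.11 to 44.5 ± 1.99 CPM (SD, n = 3; -0.70, edgeR adjusted p = 1.7e-07). Its paralog Mfn1, with 0 sites, had -0.10 (edgeR adjusted p = 0.211). Mief2, which recruits the fission GTPase and has 0 sites, fell by 0.74, and Dnm1l, the gene of that GTPase with 1 site, fell by 0.51 on the log2 scale (edgeR adjusted p = 1.7e-05 and 2.8e-06). Of the 6 genes of this list with a site, 2 were lower and 4 were not called. Among all tested genes, 37.2% of those with 1 site were lower. The share was 46.9% with 2 sites and 57.5% with 4 or more.

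As Vat1 was linked to migration, 18 adhesion and migration genes were counted. Of these, 8 were lower and 5 higher (all tested genes: 26.0% and 23.8%), with a median of -0.11. Zyx, a focal adhesion protein gene, fell from 208 ± 3.3 to 107 ± 8.51 CPM (SD, n = 3; -0.95, edgeR adjusted p = 1.2e-09), about as far as Vat1, with 0 sites. Vcl, the vinculin gene, fell by 0.49 (edgeR adjusted p = 1.3e-05) and Ilk by 0.41 on the log2 scale (edgeR adjusted p = 0.0013). Genes of the opposite strand lie over 25.5% of the exon of Vcl and 89.7% of that of Ilk, which makes the latter uncertain. Tln1, the talin gene, went from 602 ± 37.7 to 464 ± 34.9 CPM (SD, n = 3; -0.37, edgeR adjusted p = 0.00012). Against these, Myl9, a myosin light chain gene, rose by 1.51, Limk1, a kinase of cofilin, by 1.2, and Parva, a parvin gene, by 0.27 (edgeR adjusted p = 1.6e-05, 8.6e-10 and 0.00021).

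Around Kcnn4, genes of calmodulin, of its known modifiers and of calcium entry moved in both directions. Of 11 tested, 2 were lower and 4 higher (all tested genes: 26.0% and 23.8%), with a median of 0.01. Calm3, a calmodulin gene, rose from 197 ± 2.90 to 332 ± 11.3 CPM (SD, n = 3; 0.75, edgeR adjusted p = 3.4e-09), and Calm2, which encodes the same protein, fell by 0.29 on the log2 scale (edgeR adjusted p = 0.00025). Nme2, a histidine kinase that activates the channel, rose from 7.86 ± 1.55 to 23.4 ± 1.37 CPM (SD, n = 3; 1.57, edgeR adjusted p = 2.6e-08), and its value is uncertain because Nme1 is a close copy. Trim27, an inhibitor of the channel, rose by 0.36 and Stim1, a sensor of stored calcium, fell by 0.50 on the log2 scale (edgeR adjusted p = 0.00029 and 3.6e-06).

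The other calcium-activated potassium channel genes had group means of at most 1.95 CPM. Of 8 listed, 5 passed the filter, and 0 were called by edgeR, DESeq2 or limma voom in either direction. By edgeR 49.8% of all tested genes were called in either direction. The list median was -0.30. At an unadjusted p under 0.05 edgeR gave 1 lower and 0 higher. Kcnma1, the large-conductance channel gene, had 1.33 ± 0.386 and 0.723 ± 0.114 CPM (SD, n = 3; -0.87, edgeR adjusted p = 0.0712), and its adjusted p was 0.0491 without NC library 3. Kcnmb1 was at 0 in all libraries.

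**Figure D5:**
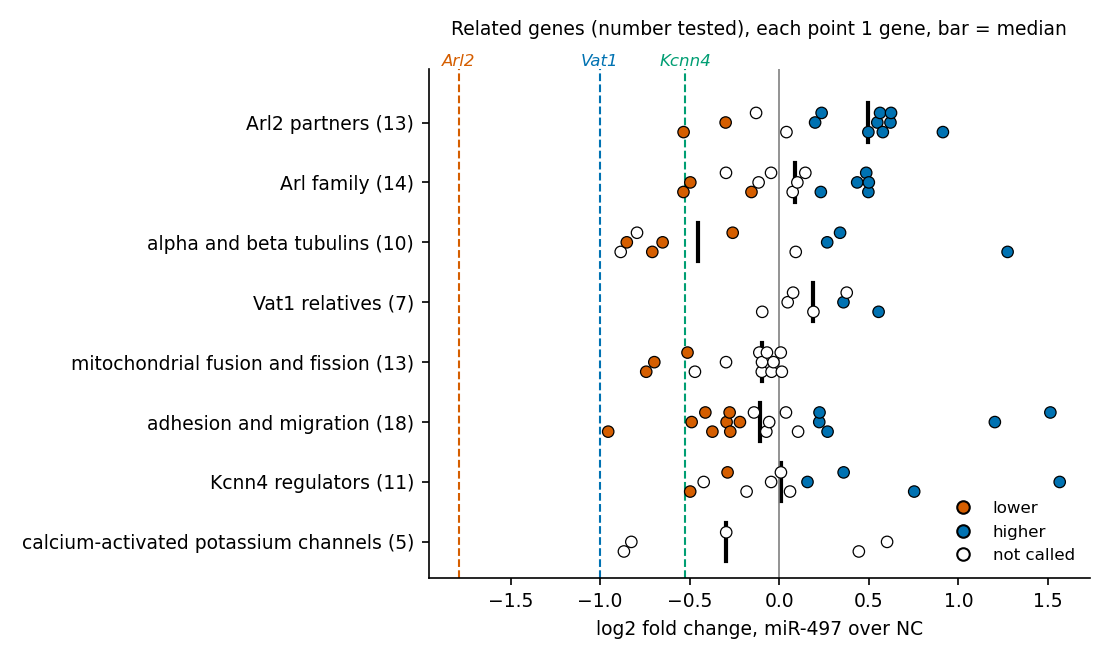
Log2 fold change (miR-497 over NC) of the tested genes in 8 lists around Vat1, Arl2 and Kcnn4, with lower genes in orange, higher genes in blue and uncalled genes open; black bars are list medians and dashed lines the 3 genes. No gene of any list lies as low as Vat1 or Arl2.

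Over the 8 lists together, 90 distinct genes were tested, of which 22 were lower, 27 higher and 41 not called. The lower genes made up 24.4%, against 26.0% among all tested genes, and the higher genes 30%, against 23.8%. The median was -0.04, against -0.02 for all genes.

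The genes whose levels across the 6 libraries were most like those of Vat1 and Arl2 were taken from 10334 genes with a mean log2 CPM of at least 2. Likeness was the root mean square distance between log2 CPM values after each gene's mean was removed. This measure favours genes with a log2 fold change near that of the member, so their like fold changes are not a separate result. For Vat1 these were Syde1, a GTPase-activating protein (0.0146), Insig1, a regulator of sterol synthesis (0.0167), and Ap1b1, a subunit of a clathrin adaptor (0.0276), with log2 fold changes of -1.03, -0.997 and -1.01. Syde1 had 1 site and the other two 0. For Arl2 they were Hoxb9, a homeobox factor (0.0524), Parp14, an interferon-induced ADP-ribosyltransferase (0.0539), and Hsd17b7 (0.0555), with -1.77, -1.73 and -1.84. Hsd17b7 had 4 sites, the other two 1 each. Kcnn4, with a mean log2 CPM of -0.62, was too low for this comparison.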

How the data were processed

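The deposited values were raw read counts per Ensembl gene, which the authors had not normalized, for 6 libraries of poly(A)-enriched RNA, per the labels' protocols. STAR 2.5.4b, featureCounts, Subread 1.6.1, edgeR 3.32.1 and the build GRCm38 are named in the submitters' processing notes, without roles. Strand setting, annotation release and handling of multiply aligned reads are not given in the sources used here. Symbols, gene models and transcripts came from GENCODE M21, which matched 55141 of 55401 identifiers.

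Genes were tested with edgeR 4.0.16 in R 4.3.3: filterByExpr (minimum count 10, minimum total 15), TMM scaling, quasi-likelihood F-test on the group, Benjamini-Hochberg over all 14661 genes, 2-sided. CPM uses TMM-scaled library sizes. The standard error is the log2 fold change divided by the square root of F. Log2 CPM used a prior count of 2. The test was also run on simulated counts with the same dispersion for every gene, a setting that does not cover the wide spread of Kcnn4. Alternatives were DESeq2 size factors, upper quartile, no filter, a mean count of 50, DESeq2 1.42.0, limma 3.58.1 voom, the replicate number as a block and each library left out.

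The 3 genes and the gene lists were chosen with earlier results of these data known. Named from each list were at most 3 genes per direction with the largest change among those past the threshold, plus genes that define the list; neighbours, genes of like pattern and genes with at least as many sites as Arl2 were named by rule (nearest on each side, the 3 closest, the 3 lowest). Values of a few listed genes are not reported here.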

Additional observations from a re-analysis of the deposited data

How the results depend on the processing

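Vat1 and Arl2 kept their direction and their call under all 13 alternatives, with log2 fold changes from -1.03 to -0.96 and from -1.91 to -1.68 (leave-one-out -1.03 to -0.96 and -1.91 to -1.68). Kcnn4 was not called under any of its 12 alternatives (edgeR, DESeq2 or limma adjusted p 0.277 to 0.932) and ran from -0.83 to -0.07; with a mean count of at least 50 it could not be tested. The fall of the Arl2 to Vat1 ratio ran from -0.87 to -0.72. Same-numbered libraries did not deviate together (correlations of -0.119, -0.0351 and -0.133), and NC library 1 correlated best with miR-497 library 3 (0.158). With the replicate block the values were -1.004 for Vat1, -1.80 for Arl2 and -0.52 for Kcnn4 (edgeR adjusted p = 2e-09, 2.3e-10 and 0.479), and the ratio difference was -0.79 (exact sign-flip permutation, p = 0.25, the smallest for 3 pairs); of the genes named, only Arl8b lost its call (edgeR adjusted p = 0.0751).

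Counts of higher or lower genes stayed within 1.5 times in every list except 2. The number of higher Vat1 relatives lay between 1 and 2, and that of lower calcium-activated potassium channels between 0 and 1, in fits that each left out a library; the 1 was Kcnma1 without NC library 3. Counting only 8mers left 0 sites in Vat1, 1 in Arl2 and 0 in Kcnn4, counting 6mers as well gave 4 in Vat1, and the shortest 3' UTR of Kcnn4 held 0; each follows from the definition used. Counting overlapping sites once, chosen after seeing the data, gave 3 in Arl2. For 104 further genes, 1340 values under an alternative were compared with the reported ones: 1285 stayed on the same side of the threshold, 46 lost a call, 9 gained one and 0 reversed. For Kcnn4, counts of 7 to 39 and coefficients of variation of 49.4% (NC) and 49.8% (miR-497) set the precision.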
